A study of Mus musculus with 2 samples.

Results

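The m6A reader proteins bind RNA that carries N6-methyladenosine (m6A), and 10 of their genes, Ythdf1, Ythdf2, Ythdf3, Ythdc1, Ythdc2, Igf2bp1, Igf2bp2, Igf2bp3, Prrc2a and Fmr1, were followed by symbol among the 55363 genes of a mouse uterus RNA-seq data set. All 10 were found, each on 1 row. The data hold 1 library of whole uterus of Mettl14 f/f genotype and 1 of Mettl14 d/d genotype, both from females, collected on gestational day 4 after mating at 6 to 8 weeks of age. In the usual notation f/f marks floxed alleles and d/d deleted ones. The labels name no strain, no Cre line and no cell type in which it acts, and do not say if tissue of several animals was pooled. There is therefore no replicate error, no test and no p-value, and "higher" and "lower" compare these libraries, not the genotypes.

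As background, m6A is written on adenosines of RNA by a complex of METTL3 and METTL14 and is recognised by readers that set the fate of the marked transcript. The YTH family holds the methylated base in a pocket of its YTH domain. In the cytoplasm YTHDF2 leads marked mRNA to deadenylation and decay, YTHDF1 is linked to translation and YTHDF3 works with both, while YTHDC1 acts in the nucleus on splicing and export. The IGF2BP proteins bind through KH domains and stabilise their targets, and PRRC2A and the fragile X protein FMRP, made by Fmr1, have also been described as m6A-binding.

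Levels are in FPKM, which scales the fragments of a gene to its length and to the size of the library, so that levels can be compared between genes. Depth, read from the steps of low values, was roughly 17800000 fragments in the f/f library and 20850000 in the other. Mettl14 itself, the targeted gene, was at 13.6 FPKM in f/f and 3.21 FPKM in d/d. Differences are log2 ratios on (FPKM + 1), d/d over f/f, which understate the change of low genes, and the count of differing genes takes those with a log2 ratio of 1 or more in size, or 2-fold. Of 16263 genes at 1 FPKM or more in a library, 10.2% were at least 2-fold higher in the d/d library and 8.28% were lower by as much. Against that, 2 of the 10 readers were at least 2-fold higher, none was lower, 6 were neither, and Igf2bp1 and Igf2bp3 stayed under 1 FPKM in both libraries. The other 8 reached 1 FPKM in both, so none was counted through d/d alone. Among the 8638 genes with a mean of 10 to 150 FPKM, where 6 of the readers lie, 8.8% passed 2-fold upward and 5.48% downward.

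Transcripts of all 3 cytoplasmic YTHDF readers stood higher in the d/d library. Ythdf2, the decay-promoting reader, was at 23.3 FPKM in f/f and 64.2 FPKM in d/d, 2.76-fold higher on plain FPKM, with a log2 ratio of 1.43 that 910 of the 16263 genes (5.6%) reached or passed. Ythdf1, linked to translation, was at 33.8 FPKM in f/f and 71 FPKM in d/d, a 2.1-fold difference with a log2 ratio of 1.05, reached by 9.59% of genes. Ythdf3 was at 26.2 FPKM in f/f and 50.9 FPKM in d/d, 1.94-fold, and its log2 ratio of 0.93 lay just under the threshold, at a value that 11.3% of genes reached. Ythdf1 likewise sits close to the threshold on its other side. It drops under the threshold with a pseudocount of 5 FPKM (0.97) and with scaling to the upper quartile (0.97). Ythdf2 stayed past it in the main setting and in 8 alternatives. Among these, the handling of shared symbols could not change a reader, since each lies on 1 row. With a pseudocount of 5 FPKM 5.34% of all genes were higher and 3.31% lower, and with the upper quartile 9.33% were higher and 9.1% lower.

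Within the family the order of levels differed between the libraries. In f/f it ran Ythdf1, Ythdf3, Ythdf2, and in d/d Ythdf1, Ythdf2, Ythdf3. Ythdf2 made up 27.9% of the summed YTHDF level in f/f and 34.5% in d/d, while the share of Ythdf1 was 40.6% and 38.2% and that of Ythdf3 was 31.5% and 27.3%. The sum of the 3 was 83.3 FPKM in f/f and 186 FPKM in d/d, 2.23-fold higher. Without replicates, neighbours in these orders cannot be said to differ.

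The estimated number of fragments behind these values was large. With the longest coding transcript as length, Ythdf2 (4129 nt, chromosome 4, from 132184912 to 132212303, minus strand, GRCm38, also called mm10) rested on about 1709 fragments in the f/f library and 5525 in the d/d library. Ythdf1 (3184 nt, chromosome 2, from 180904377 to 180920949, minus strand) rested on about 1916 and 4712, and Ythdf3 (5102 nt, chromosome 3, from 16183212 to 16217037, plus strand) on about 2381 and 5411. Counting error is thus small beside the differences, but it says nothing of the spread between animals.

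**Figure D1:**
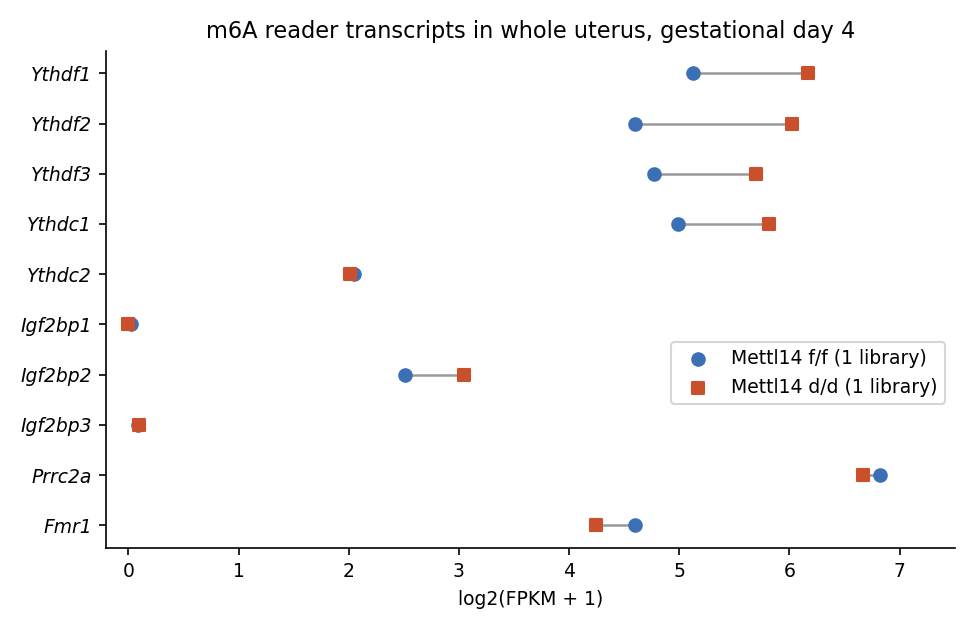
Level of each of the 10 readers as log2(FPKM + 1) in the f/f library (circle) and the d/d library (square), 1 library each, with a line joining the pair. Ythdf1, Ythdf2, Ythdf3 and Ythdc1 lie to the right in d/d, Ythdc2 overlaps, and Igf2bp1 and Igf2bp3 sit near 0 in both.

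The nuclear reader of the YTH family showed the same direction and its germ-line relative did not. Ythdc1 (chromosome 5, from 86804221 to 86836659) was at 30.8 FPKM in f/f and 55.2 FPKM in d/d, 1.79-fold, with a log2 ratio of 0.82 that 13.2% of genes reached. Ythdc2, an RNA helicase needed for meiosis in the mouse germ line, was at 3.13 FPKM in f/f and 3.02 FPKM in d/d, a log2 ratio of -0.04 that turned to 0.11 when scaled to the reference genes. It lies on chromosome 18 from 44827746 to 44889724. Ythdc1 was 9.86 times the level of Ythdc2 in f/f and 18.3 times in d/d. Over all 5 YTH genes the summed level was 117 FPKM in f/f and 244 FPKM in d/d.

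With the lower fold of 1.5, 4 of the 8 measured readers were higher, namely Ythdf1, Ythdf2, Ythdf3 and Ythdc1, and none was lower. At that fold 18.8% of all 16263 genes were higher and 17.8% lower. Igf2bp2 was 1.54-fold higher on plain FPKM but was not counted, since its log2 ratio with the pseudocount was 0.53. A scaling to 13 reference genes raised every d/d value by 0.20 on the log2 scale and the median of all genes to 0.17. It took the same 4 readers past 2-fold, with Ythdf2 at 1.62, Ythdf1 at 1.24, Ythdf3 at 1.12 and Ythdc1 at 1.01. Under that scaling 13.1% of 16390 genes were higher and 6.59% lower, which is 2155 against 1080 genes where the deposited scale gave 1652 against 1346.

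**Figure D2:**
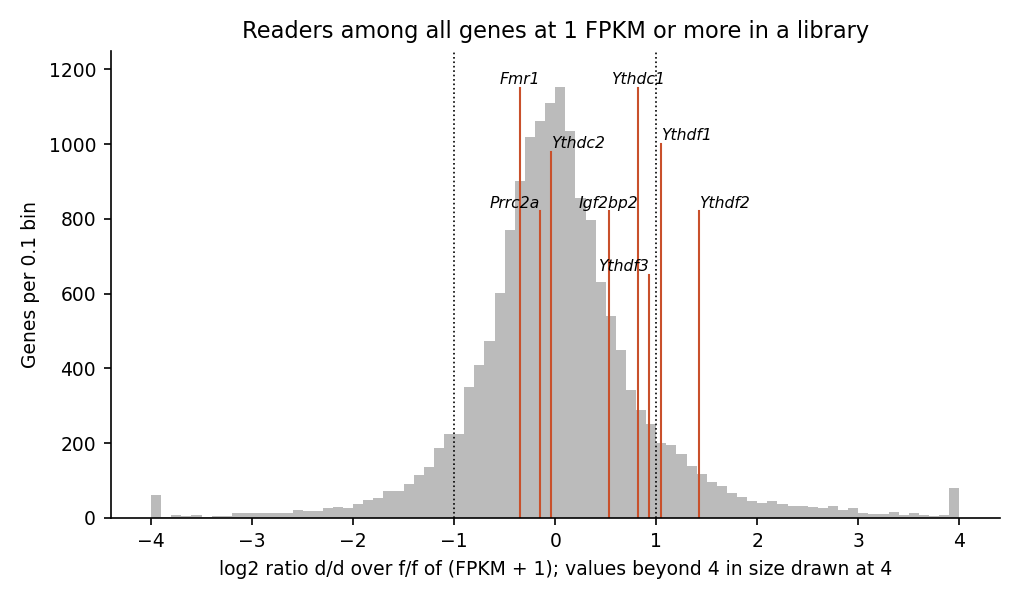
Histogram of log2 ratios, d/d over f/f on (FPKM + 1), for the 16263 genes at 1 FPKM or more in a library, with the 8 measured readers as labelled lines and the 2-fold threshold dotted. Line height carries no meaning. Ythdf2 and Ythdf1 lie beyond 1, Ythdf3 at 0.93 and Ythdc1 at 0.82 just inside, and Fmr1 at -0.35 is the lowest.

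Promoter sequence from RefSeq on GRCm38.p6, matched by symbol, was held for 7 of the 10 readers. The windows run from 250 to 51 bases before the start annotated in RefSeq, 5′ to 3′ in the direction of the gene. The gene positions given above for Ythdf1, Ythdf2 and Ythdc1 come from GENCODE and begin closer to their windows than that. GENCODE exons cover 9 bases of the Prrc2a window and 115 bases of each Fmr1 window. Windows are shown for 3 readers that stood higher in d/d (Ythdf1, Ythdf2 and Ythdc1) and, as a contrast, for Prrc2a, which did not. Capitals mark the GC box GGGCGG and the E-box CACGTG, each searched on both strands.
Ythdf1, chr2:180920987-180921186, minus strand: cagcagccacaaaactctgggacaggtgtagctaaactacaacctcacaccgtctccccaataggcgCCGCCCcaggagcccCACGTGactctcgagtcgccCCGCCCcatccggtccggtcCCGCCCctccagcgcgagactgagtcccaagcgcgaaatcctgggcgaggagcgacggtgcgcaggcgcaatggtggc
Ythdf2, chr4:132212307-132212506, minus strand: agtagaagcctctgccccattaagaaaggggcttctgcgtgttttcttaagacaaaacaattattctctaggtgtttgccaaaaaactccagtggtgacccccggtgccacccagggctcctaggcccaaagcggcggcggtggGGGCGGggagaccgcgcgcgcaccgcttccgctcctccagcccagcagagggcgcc
Ythdc1, chr5:86804016-86804215, plus strand: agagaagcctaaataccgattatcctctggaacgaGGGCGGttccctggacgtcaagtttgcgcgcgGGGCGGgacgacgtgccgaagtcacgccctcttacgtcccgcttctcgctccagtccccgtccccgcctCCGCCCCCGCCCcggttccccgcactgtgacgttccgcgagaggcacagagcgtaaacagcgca
Prrc2a, chr17:35164928-35165127, minus strand: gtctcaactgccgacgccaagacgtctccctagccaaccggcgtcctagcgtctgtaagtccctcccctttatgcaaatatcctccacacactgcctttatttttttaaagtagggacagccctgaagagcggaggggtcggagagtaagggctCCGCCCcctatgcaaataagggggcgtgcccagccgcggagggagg

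The Ythdc1 window held 4 GC boxes, as 1.77% of 32851 promoter windows did with 4 or more, and the Ythdf1 window held 3. The Ythdf2 window and the Prrc2a window each held 1, where 24.6% of all windows held at least 1. The E-box, in 4.34% of windows, was found in that of Ythdf1 alone among the 4, and no marked match overlapped another. Neither the estrogen response element half-site AGGTCA, in 11.4% of windows, nor the progesterone and glucocorticoid receptor half-site TGTTCT, in 13.2%, was found in any window of the 7 readers. TATAAA, in 9.14% of windows, was likewise not found. All windows of the 7 were richer in G and C than the median window of 51.5%, with 61% for Ythdf2, 66.5% for Ythdf1, 65.5% for Ythdc1 and 58% for Prrc2a. The GC box stood also in the windows of Igf2bp2 and Fmr1, and not in that of Igf2bp3.

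Among the IGF2BP readers, Igf2bp2 was the one expressed in this tissue. Igf2bp2 was at 4.71 FPKM in f/f and 7.25 FPKM in d/d, and its log2 ratio of 0.53 was reached by 20.6% of genes. Igf2bp3 was at 0.0645 FPKM in f/f and 0.0663 FPKM in d/d, about 4.99 and 6 fragments. Igf2bp1 was at 0.0187 FPKM in f/f, about 2.79 fragments over its 8378 nt transcript, and was listed at 0 in d/d, where a count of 0 allows up to 0.0172 FPKM (3 fragments, counting error alone). Both are known mainly from embryonic tissue, and no fold is given for Igf2bp1, which lies at or under 3 fragments in both libraries. Igf2bp2 made up 98.3% of the summed IGF2BP level in f/f and 99.1% in d/d. Exons of Igf2bp3 share 1529 bases with those of Malsu1 on the opposite strand, itself at 17.1 FPKM in f/f and 16.9 FPKM in d/d. The strandedness of the libraries is not given in the sources used here, so the few Igf2bp3 fragments may belong to either gene.

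Prrc2a and Fmr1, the readers outside these families, were not higher in d/d. Prrc2a, a coiled-coil protein described as a reader in mouse neural cells, had the highest level of the 10 in both libraries, at 112 FPKM in f/f and 101 FPKM in d/d. Its log2 ratio was -0.15, and 0.04 when scaled to the reference genes. Fmr1, which encodes an RNA-binding protein best known as a translational repressor in neurons, was at 23.2 FPKM in f/f and 18 FPKM in d/d, a log2 ratio of -0.35 that 28.3% of genes lay at or below. In f/f Fmr1 at 23.2 FPKM and Ythdf2 at 23.3 FPKM stood side by side, and in d/d Ythdf2 was 3.57 times Fmr1. Prrc2a made up 43.6% of the summed level of the 10 readers in f/f and 27.2% in d/d. That sum was 257 FPKM in f/f against 370 FPKM in d/d.

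**Figure D3:**
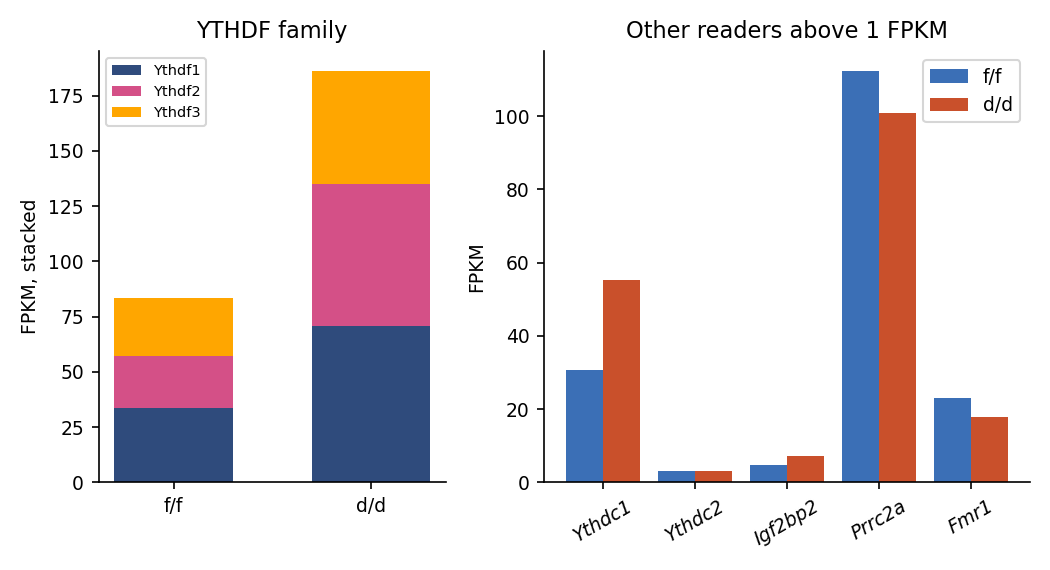
Left, stacked FPKM of Ythdf1, Ythdf2 and Ythdf3 in the f/f and d/d libraries, which sum to 83.3 and 186 FPKM. Right, FPKM of the other readers above 1 FPKM, with 1 library per bar and no error bars, where Ythdc1 is higher in d/d and Prrc2a is the most abundant in both libraries.

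The paralogs of these last readers showed no difference past 2-fold. Of Fxr1, Fxr2, Prrc2b and Prrc2c, none was at least 2-fold higher or lower, and their median log2 ratio was -0.20. Fxr1, the FMRP relative with the highest level, was at 62.4 FPKM in f/f and 48 FPKM in d/d, and Fxr2 was at 33.3 and 26.9 FPKM. Fmr1 made up 19.5% of the summed FMRP family in f/f and 19.3% in d/d, since all 3 members had ratios of like size. Prrc2b was at 44.4 FPKM in f/f and 50.8 FPKM in d/d.

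Over the 8 measured readers the median log2 ratio was 0.68, beside a median of -0.01 and quartiles of -0.41 and 0.41 over all 16263 genes. Without the filter on low values the median was 0.27 over all 10 readers and 0 over all 55363 genes. The other genes of the m6A pathway had medians nearer to 0. Among 13 writer-complex and other methyltransferase genes the median was 0.14, with Rbm15, a complex subunit that binds RNA, higher at 5.51 FPKM in f/f and 13.6 FPKM in d/d, and Mettl14 lower. The erasers Fto and Alkbh5 were at 39.1 and 31 FPKM, and at 23.4 and 25.1 FPKM, and neither passed 2-fold. Of 11 other proteins proposed to bind m6A RNA, none was higher and 1 was lower (median -0.13), namely Rbmx, an X-linked splicing regulator, at 26.9 FPKM in f/f and 7.45 FPKM in d/d. Over all 16263 genes 8.28% were lower by as much.

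Partners through which the readers act were mostly within 2-fold. In the list of 20 measured genes of the deadenylation, decapping and RNase P/MRP machinery used by YTHDF2, 1 was higher, none was lower and 19 were neither, with a median of -0.06. The higher one was Cnot8, a deadenylase subunit of the CCR4-NOT complex, at 30.3 FPKM in f/f and 71.7 FPKM in d/d. The scaffold Cnot1, which YTHDF2 contacts, was at 53.5 FPKM in f/f and 50.7 FPKM in d/d (named after its values were seen). Of 8 splicing and export partners of YTHDC1, 1 was higher, the export factor Nxt1 at 52.7 FPKM in f/f and 118 FPKM in d/d, and none was lower (median -0.04). Over all 16263 genes 10.2% were at least 2-fold higher, so 1 higher gene among 20 or among 8 does not set these lists apart. Of 3 partners of YTHDC2, the exonuclease gene Xrn1 was measured, at 6.65 FPKM in f/f and 7.77 FPKM in d/d, while the germ-line genes Meioc and Rbm46 stayed under 1 FPKM.

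IGF2BP cofactors and FMRP partners held no gene past 2-fold on the log2(FPKM + 1) scale. The 7 IGF2BP cofactors had ratios below 0 in each case, from -0.39 to -0.11 (median -0.27). The poly(A)-binding protein gene Pabpc1 was at 557 FPKM in f/f and 424 FPKM in d/d, Ybx1 at 1457 and 1166 FPKM, and Hnrnpu at 205 and 175 FPKM. Scaled to the reference genes, whose own median is -0.20, each log2 ratio moves up by 0.20, so that the smallest ones turn above 0. The 7 FMRP partners had a median of -0.07, with the translation regulator Caprin1 at 187 FPKM in f/f and 164 FPKM in d/d, Cyfip1 at 37.2 and 41 FPKM, and Nufip2 at 16.5 and 32.5 FPKM. Cyfip2, a paralog of Cyfip1, was at 4.78 FPKM in f/f and 2.14 FPKM in d/d, which is 2.23-fold lower on plain FPKM and a log2 ratio of -0.88 with the pseudocount (named after its values were seen).

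Transcripts long known as targets of these proteins went both ways. Of 7 measured IGF2BP target RNAs, 2 were lower and none was higher (median -0.24). The lower ones were the transcription factor gene Myc, at 77.8 FPKM in f/f and 20.6 FPKM in d/d, and the imprinted noncoding RNA H19, at 15.9 FPKM in f/f and 5.15 FPKM in d/d. Of 7 measured FMRP target mRNAs, 1 was lower and none was higher (median -0.26), namely the synaptic immediate early gene Arc, at 2.06 FPKM in f/f and 0.374 FPKM in d/d. Arc reached 1 FPKM in f/f alone, so it was counted only through the library where it is higher. These shares of lower genes rest on 7 genes each, beside 8.28% lower over all 16263 genes. Whether the readers act on these transcripts in the uterus was not measured.

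**Figure D4:**
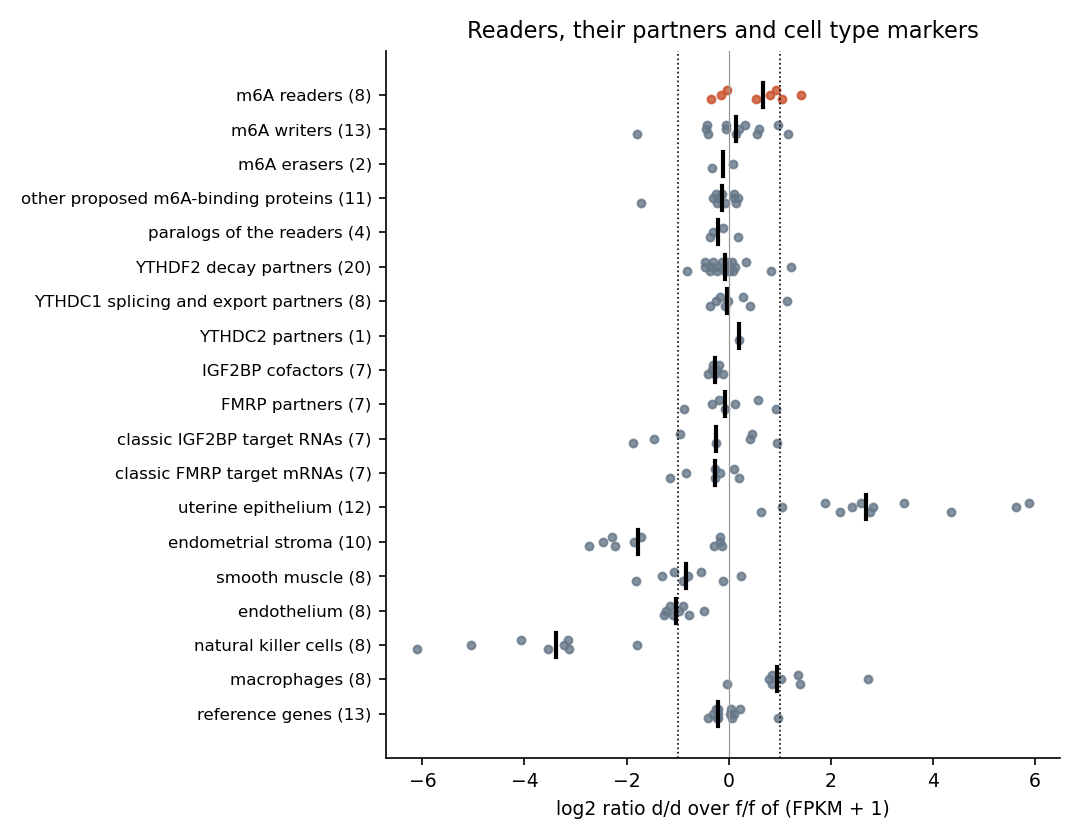
Log2 ratios, d/d over f/f on (FPKM + 1), for each measured gene of 19 lists, with the number of genes in parentheses, each list's median as a black bar and the 2-fold threshold dotted. The median of the readers (0.68) lies above those of the writers (0.14) and the partner lists, but the ranges of these lists overlap. Of the 8 measured readers, 5 lie above 0 and 3 below. The epithelial and natural killer markers lie farthest from 0, with medians of 2.69 and -3.38.

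Cell type markers differed between the libraries as well, and fewer cells of a type cannot be told apart from less RNA per cell in such whole-tissue samples. The medians of the epithelial, natural killer and stromal lists were larger in size than the log2 ratio of any reader, while those of the macrophage, smooth muscle and endothelial lists were of the size seen in Ythdf1, Ythdf2, Ythdf3 and Ythdc1 or close to it. All 12 epithelial, 10 stromal and 8 smooth muscle markers reached 1 FPKM in both libraries. No other organ was compared, so their presence does not test the uterus label. Of the epithelial markers, 11 of 12 passed 2-fold upward in d/d (median 2.69), and their summed level was 434 FPKM in f/f and 2605 FPKM in d/d, with the keratin Krt19 at 4.87 and 348 FPKM. Stromal markers had 6 of 10 lower (median -1.78), from a summed 4884 FPKM in f/f to 2993 FPKM in d/d, led by the matrix protein gene Postn at 207 and 30.5 FPKM. The other 4 stayed within 2-fold and are among the abundant ones of the list. Dcn was at 911 and 811 FPKM, Lum at 224 and 200 FPKM, Col1a1 at 837 and 682 FPKM, and Col1a2 at 859 and 787 FPKM. Smooth muscle had 3 of 8 lower (median -0.84, sums of 4936 and 3222 FPKM), led by desmin, Des, at 465 and 131 FPKM. Endothelium had 4 of 8 lower (median -1.03, sums of 362 and 172 FPKM), led by the cadherin Cdh5 at 72.5 and 29.8 FPKM. Natural killer cell markers had 8 of 8 lower (median -3.38, sums of 278 and 9.48 FPKM), led by the granzyme Gzmb at 91.3 and 0.339 FPKM. Macrophage markers had 4 of 8 higher (median 0.95, sums of 792 and 1776 FPKM), led by the co-receptor Cd14 at 12.9 and 91.6 FPKM. The part of this shift in the values of Ythdf1, Ythdf2, Ythdf3 and Ythdc1 was not tested.

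The readers higher in d/d were also set beside genes of like transcript composition, whose medians lay near 0. Coding genes within 2 points of GC and 1.5 times the length of the Ythdf2 transcript, 1287 of them, had a median log2 ratio of -0.02, and 7.46% of them were at least 2-fold higher. For Ythdf1 the 1355 like genes had a median of -0.0047 and 8.41% were higher, and for Ythdf3, with a GC content of 38.4%, the 370 like genes had a median of -0.06 and 5.95%. Relative to such genes the log2 ratio was 1.45 for Ythdf2, 1.05 for Ythdf1, 0.99 for Ythdf3 and 0.86 for Ythdc1. The motif GGACT, the commonest form of the site that the METTL3 and METTL14 complex methylates, stood 5 times in the longest coding transcript of Ythdf2, 2 times in that of Ythdc1 and once in those of Ythdf1 and Ythdf3. Prrc2a held 11. Per kilobase this was 1.21 for Ythdf2, 0.31 for Ythdf1, 0.20 for Ythdf3, 0.61 for Ythdc1 and 1.6 for Prrc2a, beside a median of 1.05 over 13755 coding genes. Methylation itself was not measured in these libraries.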

How the data were processed

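RNA was extracted from whole uterus with TRIzol and made into libraries with the TruSeq RNA kit, per the labels' protocols. The deposited values are FPKM per gene, computed by the authors. HISAT2 (2.2.1), Cufflinks (2.2.1) and build mm10 appear in the submitters' processing notes; neither annotation release nor strandedness is given in the sources used here. FPKM rests on an estimated transcript length and on how fragments are shared between overlapping genes.

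Rows sharing a symbol were summed, from 55483 rows to 55363 genes. Log2 ratios used a pseudocount of 1 FPKM and genes at 1 FPKM or more in a library. Gene positions and transcripts came from GENCODE M21 (GRCm38), promoters from RefSeq (GRCm38.p6). Depth was read from coding and noncoding genes with 1 transcript of at least 2000 nt, where 68.5% of 928 low f/f values and 65.4% of 952 low d/d values lay within 0.1 of a whole number of fragments. Full rather than effective length was used, so depth tends to be too low. It entered no comparison.

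The readers and all 19 lists were chosen with earlier results of these data known. From each list up to 3 genes past 2-fold with the largest ratios are named. A list with no such gene is shown by its 3 most abundant ones. Cell type lists are shown by their leading gene, with the stromal genes within 2-fold added, and the reference genes by their median. Folds given for single genes and sums are on plain FPKM, without the pseudocount, while counts past 2-fold use the log2 ratios with it. The 2 libraries give 1 ratio, so no genes of like pattern are named. The symbol Hrsp12 had no match; its other name Rida is in the same list. Alternatives changed the pseudocount, filter, scaling, handling of shared symbols and fold; the comparison with genes of like GC and length was added after seeing the data. Python 3.11.15, pandas 2.3.3 and numpy 2.4.6 were used.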

Additional observations from a re-analysis of the deposited data

How the results depend on the processing

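The median log2 ratio of the measured readers, 0.68, stayed above 0 in every alternative run. It was 0.72 with a pseudocount of 0.1 FPKM and 0.54 with one of 5 FPKM, 0.27 over all 10 without a filter, 0.82 over the 7 at 5 FPKM or more, 0.66 as TPM, 0.86 scaled to the reference genes, 0.60 scaled to the upper quartile, and 0.69 relative to genes of like GC and length. Of the readers, 2 were at least 2-fold higher, but 1 (Ythdf2) with a pseudocount of 5 FPKM or the upper quartile, and 4 with the reference genes or a 1.5-fold rule. None was lower in any alternative. Over all genes, 1652 higher and 1346 lower became 869 and 539 with a pseudocount of 5 FPKM, which shrinks low genes, and 3063 and 2888 at 1.5-fold. They were 2155 and 1080 scaled to the reference genes, and 1514 and 1476 scaled to the upper quartile. Ythdc2 (-0.10 to 0.11), Igf2bp3 (-0.0025 to 0.021) and Prrc2a (-0.24 to 0.04) changed sign across the alternatives. With 1 library per genotype, leaving out a library gives no value. No paired analysis was possible because each genotype has 1 library.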

Other observations

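Set against the writer subunit that is targeted, the readers stood in another proportion in each library. Ythdf1 was 2.48 times the FPKM of Mettl14 in f/f and 22.1 times in d/d, and Ythdf2 was 1.71 and 20.0 times. Mettl14 itself was 4.25-fold lower in d/d, which alone raises such a ratio for any gene with the same level in both libraries. Against the eraser Fto, which had a log2 ratio of -0.33, Ythdf2 was 0.595 times in f/f and 2.07 times in d/d. Rbm15b, the paralog of Rbm15 in the writer complex, was at 15.1 FPKM in f/f and 30.4 FPKM in d/d, a log2 ratio of 0.96 (chosen after its values were seen). The decapping enzyme gene Dcp2, also chosen after its values were seen, was at 32.3 FPKM in f/f and 58.4 FPKM in d/d, a log2 ratio of 0.84.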
